A study of Homo sapiens with 4 samples.

Results

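The 8505C-PTX library was compared with the 8505C wt library across all gene names, to describe how the transcriptome of 8505C cells selected with paclitaxel differed from that of the parental cells. 8505C and SW1736 are established human lines of anaplastic thyroid carcinoma, an undifferentiated and aggressive cancer of the thyroid. Both 8505C libraries came from cells of that line. The 8505C-PTX cells had been exposed for 6 months to paclitaxel, a taxane that binds and stabilizes microtubules, at doses rising from 1 nM to 1.5 µM, and were kept at 1.5 µM. The 8505C wt cells received no paclitaxel, so selection and the presence of the drug differed together and cannot be told apart. SW1736 wt and SW1736-PTX cells were the other pair of the study, treated in the same way, and each of the 4 conditions had 1 library. Of the 26485 gene names in the tables, 13794 had an FPKM (fragments per kilobase of gene, scaled to the aligned fragments of a library) above 0.5 in at least 1 of the 2 8505C libraries, after the rows of a name were summed, and were compared. The change of a gene is log2((8505C-PTX + 0.1)/(8505C wt + 0.1)) on FPKM, which makes the change of weakly expressed genes look smaller than their ratio. Genes were called up- or down-regulated beyond 1.5 on this scale. With 1 library per condition no difference had a replicate check, no p-value was computed, and the spread between cultures is unknown.

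Taxanes hold microtubules in their polymerized state, so that chromosomes cannot be aligned and segregated and dividing cells stop in mitosis. Cells selected in a taxane are known to gain drug efflux through transporters of the ATP-binding cassette family, to change their tubulin isotypes, or to divide more slowly. Survival under such a drug also draws on stress responses, on contact with the extracellular matrix and on inflammatory signalling, and these groups of genes are followed here beside the machinery of the cell cycle.

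The depth that follows from coverage and FPKM was 43.5 M reads for 8505C wt and 53.6 M for 8505C-PTX, so that the limit of 0.5 FPKM corresponded to 21.8 and 26.8 reads on a gene of 1 kb. Of 16 markers of thyroid follicular cells, 2 passed 0.5 FPKM in either 8505C library, namely the transcription factors NKX2-1 (30.5 FPKM in wt and 39.0 in PTX) and HHEX (5.92 and 14.4). The defining products of thyroid cells were near absent, since TSHR and SLC5A5 were listed at 0 in both libraries and TG at 0 and 0.00586 FPKM. In some thyroid markers the library labelled SW1736-PTX was nearer to 8505C than to SW1736 wt. NKX2-1 was at 36.3 FPKM there and at 0 in SW1736 wt, PAX8 at 0.206 against 38.2, and FOXE1 at 0.512 against 26.6. Other genes went the other way. DIO2 was at 1.53 FPKM in that library and 3.34 in SW1736 wt, but at 0.0288 in 8505C wt and 0.025 in 8505C-PTX. The tubulin TUBB2B was listed at 0 in both SW1736 libraries and at 19.1 and 12.4 FPKM in 8505C wt and 8505C-PTX. Across 14692 genes, which are not independent replicates, the log2 levels of 8505C-PTX had a Pearson's r of 0.933 with the library labelled SW1736-PTX and of 0.877 with 8505C wt. What made these libraries alike was not tested. Statements about genes called in the 8505C pair only rest on that library and cannot be made without it. A different count, which leaves the library out, is given beside them below.

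Of the 13794 genes, 2068 were up-regulated (15% of all compared) and 812 down-regulated (5.89%), 20.9% in either direction. In the SW1736 pair 15.7% of 14202 genes were up-regulated and 10.2% down-regulated, 25.9% in either direction. The median change of all compared genes was 0.11, and 0.01 for those above 0.5 FPKM in both libraries. The increases lay at lower levels than the decreases. The up-regulated genes had a median of 0.475 FPKM in 8505C wt and 3.76 in 8505C-PTX, and 1050 of them (50.8%) were at or below 0.5 FPKM in 8505C wt, with 214 listed at 0. The down-regulated genes had a median of 12.3 FPKM in 8505C wt and 2.97 in 8505C-PTX, and 221 of them (27.2%) were at or below 0.5 FPKM in 8505C-PTX. By the higher of the 2 values, 31.2% of the genes between 0.5 and 2 FPKM were up-regulated and 7.38% down-regulated, whereas above 50 FPKM the shares were 7.42% and 8.53%. A gene group of low abundance therefore has to be read against this gradient. By RefSeq class, 25% of 623 long noncoding RNAs were up-regulated, compared with 14.3% of 12230 protein-coding genes, and their median FPKM in the higher library was 1.83 compared with 12.4.

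**Figure D1:**
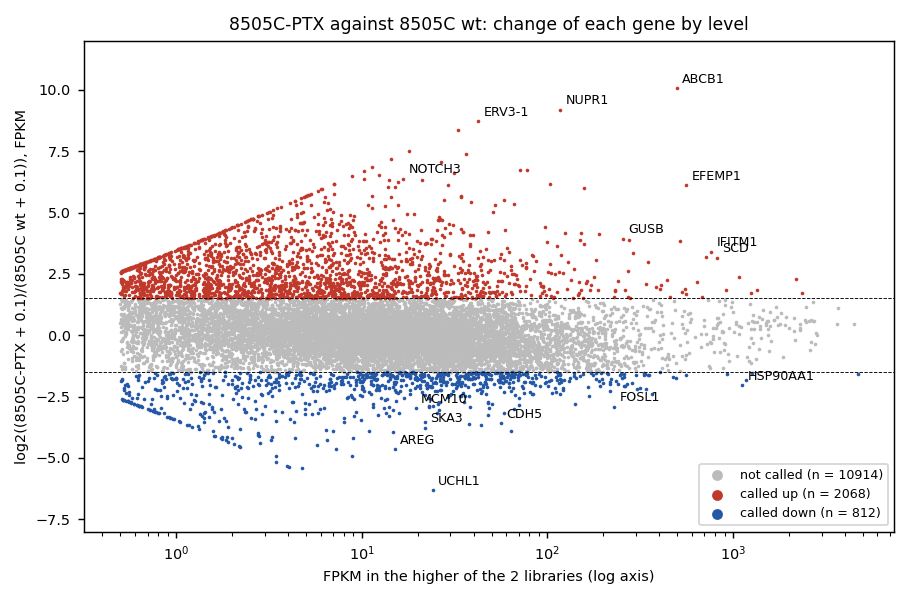
Each point is 1 of 13794 genes, with the FPKM of the higher 8505C library on a log axis and the log2 change on the vertical axis; the dashed lines mark 1.5 and -1.5. Increases (red, 2068) crowd the low levels, while decreases (blue, 812) are spread over all levels and reach ACTB, a cytoplasmic actin, at 4688.1 FPKM in 8505C wt.

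Among genes on a single row with more than 5 FPKM in the higher library, the 15 largest increases included transporters, matrix proteins and surface proteins. ABCB1, the efflux pump P-glycoprotein, was at 0.363 FPKM in 8505C wt and 497 in 8505C-PTX (chromosome 7, 87503863 to 87713323, hg38). MGP, an inhibitor of matrix calcification, was listed at 0 and at 17.9 FPKM, and SLC22A17, a receptor for lipocalin, at 0 and 14.35. The placental alkaline phosphatases ALPP and ALPPL2, surface enzymes of near-identical sequence that could share reads, were at 0.637 and 0.120 FPKM in wt and at 77.9 and 36.6 in PTX. The secreted CCN family protein WISP2 was at 0.101 and 26.65 FPKM, the receptor NOTCH3 at 0.103 and 16.7, and the metalloreductase STEAP4 at 0.0367 and 12.4. TSPAN8, a tetraspanin of the cell surface, was listed at 0 in wt and at 8.90 FPKM in PTX. Of the 15 largest increases, 12 were also called up in the SW1736 pair, and the exceptions were NUPR1, ERV3-1 and ZNF117, described below.

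The 15 largest decreases under the same rule included genes of varied function, and 2 of them were also called down in the SW1736 pair. UCHL1, a ubiquitin hydrolase of neurons, was at 24.1 FPKM in 8505C wt and 0.204 in 8505C-PTX (chromosome 4, 41256881 to 41268429). CDCP1, a transmembrane substrate of SRC kinases, fell from 8.86 to 0.1999 FPKM, AREG, a ligand of the epidermal growth factor receptor, from 15.1 to 0.511, and NLGN4X, a synaptic adhesion protein, from 6.48 to 0.240. CDH5, the cadherin of endothelial junctions, fell from 55.9 to 4.54 FPKM, although 6 of the other 7 endothelial markers stayed below 0.5 FPKM in both libraries and VWF was listed at 0 in both. The remaining one, EMCN, a sialomucin, went the other way and rose from 0.0197 to 3.11 FPKM. SKA3, which couples kinetochores to microtubules, fell from 21.9 to 1.53 FPKM, RPL22L1, a paralogue of a ribosomal protein, from 37.9 to 2.99, and MGLL, which hydrolyses monoglycerides, from 21.8 to 1.78.

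The machinery of DNA replication was lower throughout. Of 46 genes of replication licensing and the replication fork, 27 were down-regulated and none up-regulated, where 5.89% of all compared genes were down-regulated. All 46 had a change below 0, compared with 45.7% of all genes (54.3% were above 0), and the median was -1.64. MCM10, which activates the replicative helicase, fell from 19.5 to 2.39 FPKM. RFC3, a subunit of the clamp loader, fell from 24.1 to 3.23 FPKM, GINS4, a subunit of the helicase, from 23.1 to 3.09, and CDC6, which loads the helicase on origins, from 50.0 to 7.15. GINS2, another helicase subunit that was chosen after its values were seen, fell from 48.0 to 7.06 FPKM. Summed over the list, the FPKM was 2406 in wt and 853 in PTX. In bulk RNA, fewer cells in a phase or of a type and less RNA per cell cannot be told apart.

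Promoters of this list were searched in RefSeq (GRCh38.p14), where 39 of its 46 members and 10583 of all compared genes had an entry, over the 250 bases before the annotated start. The words TTTCCCGC and TTTGGCGC, core letters of sites of E2F factors, were searched on both strands, with overlapping matches allowed. Of the 39 promoters, 12 held a match (30.8%), and of all 10583 promoters 3.17%. Within the list, the median change was -1.35 for the 12 genes with a match and -1.89 for the 27 without, so a match did not go with a larger decrease. The promoters of RFC3 and GINS2 are shown because they hold a match and their genes were down-regulated, with the matching letters in capitals. The sequence of RFC3 is chr13:33817899-33818148, plus strand, with the match beginning 55 bases before the start, and that of GINS2 is chr16:85688955-85689204, minus strand, with the match beginning 31 bases before it. Each match is the word TTTCCCGC read on the other strand, and a match is a description of letters and not of a bound site.
RFC3: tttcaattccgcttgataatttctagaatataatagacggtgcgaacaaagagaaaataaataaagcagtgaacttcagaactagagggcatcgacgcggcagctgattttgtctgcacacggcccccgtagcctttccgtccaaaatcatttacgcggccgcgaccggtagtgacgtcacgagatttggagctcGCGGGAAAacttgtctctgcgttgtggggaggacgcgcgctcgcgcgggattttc
GINS2: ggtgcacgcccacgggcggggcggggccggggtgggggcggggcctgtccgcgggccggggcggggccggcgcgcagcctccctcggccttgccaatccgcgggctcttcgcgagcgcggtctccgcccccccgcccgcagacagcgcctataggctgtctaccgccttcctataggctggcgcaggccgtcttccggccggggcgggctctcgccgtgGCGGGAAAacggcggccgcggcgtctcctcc

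The genes that move chromosomes followed the same direction. Of 51 genes of the mitotic checkpoint and kinetochore, 28 were down-regulated (54.9%) and none up-regulated, with a median of -1.55. Besides SKA3, the centromere protein CENPI fell from 8.78 to 1.56 FPKM, the checkpoint protein MAD2L1 from 73.6 to 16.5, and the kinetochore protein ZWINT from 91.7 to 21.6. Kinesins, motors that walk on microtubules, leaned the same way, with a median of -0.69 and 19 of 30 below 0. Of the 30, 5 were down-regulated (16.7%, beside 5.89% of all genes), among them the spindle motors KIF4A (23.5 to 6.56 FPKM) and KIF23 (49.8 to 14.2). The 2 that were up-regulated (6.67%, beside 15% of all genes) included KIF26A (0.165 to 5.08).

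Tubulins, the target of paclitaxel, were called about as often as other genes. Of 15 alpha-, beta-, gamma-, delta- and epsilon-tubulin genes compared, 2 were up-regulated and 1 down-regulated, with a median of -0.62 (13.3% and 6.67%, beside 15% and 5.89% of all genes). Their summed FPKM was 4060 in wt and 2171 in PTX. TUBA1A, an alpha-tubulin of neurons, rose from 41.9 to 172.6 FPKM, and TUBB4A from 0.294 to 1.72, while TUBA4A fell from 5.32 to 1.109. The abundant isotypes were lower without being called: TUBA1B was at 1334.5 FPKM in wt and 676 in PTX, TUBA1C at 884 and 355, TUBB at 529 and 297, TUBB4B at 751 and 301, and TUBB6 at 257 and 119. TUBB3, the isotype most often studied in taxane resistance, was at 53.4 and 96.8 FPKM, a change of 0.86 that did not pass the limit. In the pair of SW1736, 1 of 14 tubulins was up-regulated and 1 down-regulated, with a median of -0.61, and TUBB3 was at 121.5 and 84.0 FPKM.

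Cyclins of the D and E types, cyclin-dependent kinases, their inhibitors and the RB and E2F families were taken as a single list. It had 11 decreases and 2 increases among 28 genes (39.3% and 7.14%, beside 5.89% and 15% of all genes), with a median of -1.14. The G1/S cyclins CCNE1 and CCNE2 fell from 4.95 to 0.652 FPKM and from 23.6 to 3.80, CCND3 from 44.03 to 8.49, and the E2F partner TFDP1 from 75.2 to 14.6. The 2 increases were both inhibitors of the cycle. CDKN1C (p57) rose from 0.847 to 13.8 FPKM and CDKN2B (p15) from 1.13 to 4.55. DNA repair followed with 17 decreases (26.2%) and no increase among 65 genes and a median of -0.83. The decreases were led by XRCC2 (9.27 to 0.986 FPKM), which acts in homologous recombination, the polymerase POLQ (6.24 to 0.717) and the helicase BLM (8.29 to 1.33).

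Chaperones and the proteasome were lower as well. Of 35 heat-shock chaperones, 13 were down-regulated and 3 up-regulated (37.1% and 8.57%, beside 5.89% and 15% of all genes). Their median was -1.29, and their summed FPKM was 7926 in wt and 3538 in PTX. HSP90AA1, the inducible cytosolic HSP90, fell from 1121.5 to 274 FPKM, the chaperone HSPH1 from 83.3 to 15.7, and the mitochondrial co-chaperonin HSPE1 from 341.0 to 74.0. The 3 members that rose were the small heat-shock protein CRYAB (0.705 to 4.73 FPKM), HSPA12A (0.538 to 2.26) and the co-chaperone DNAJB2 (7.84 to 22.75). Proteasome subunits had 5 decreases (10.9%) and no increase among 46 genes, with a median of -0.89 and 40 members below 0. PSMD5, an assembly chaperone, fell from 4.74 to 0.0143 FPKM, and the subunits PSMC2 and PSMD2 from 43.2 to 11.1 and from 234 to 64.1. In contrast, cytosolic ribosomal proteins had a median of 0.43 with only RPL22L1 called among 82, and nuclear-encoded respiratory chain genes a median of -0.13 with 2 of 82 called.

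**Figure D2:**
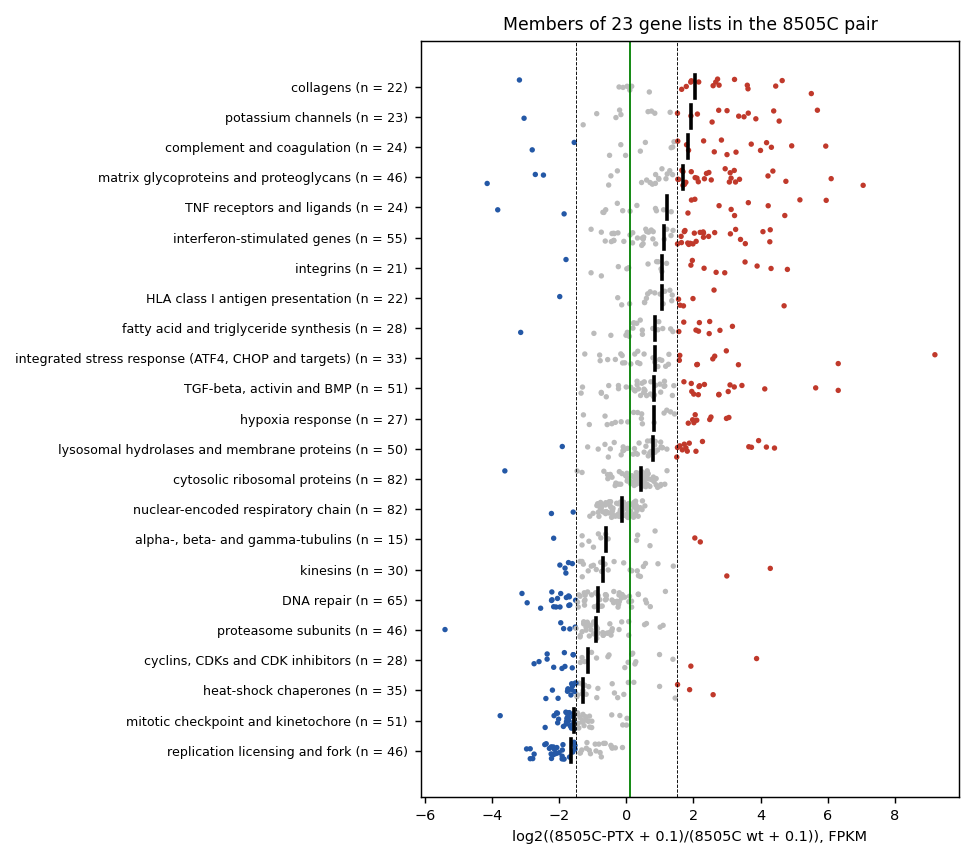
Each point is a gene of 1 of 23 lists, placed by its log2 change in the 8505C pair; red and blue points were called up and down, black bars are list medians, the green line is the median of all genes (0.11) and the dashed lines mark 1.5 and -1.5. Replication (-1.64) and mitotic genes (-1.55) are at the bottom, and collagens (2.05) at the top.

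At the other end, genes of the extracellular matrix were higher in 8505C-PTX. Of 46 matrix glycoproteins and proteoglycans, 27 were up-regulated and 3 down-regulated (58.7% and 6.52%, beside 15% and 5.89% of all genes). The median was 1.69, or 1.61 when 0.5 FPKM was required in both libraries. EFEMP1, a fibulin, rose from 8.03 to 559 FPKM, and MFAP5, a microfibril protein, from 0.635 to 15.1. The 3 decreases were of HAPLN1 (3.29 to 0.0913 FPKM), FBN2 (26.4 to 3.94) and TNC (33.7 to 5.99), proteins of hyaluronan, microfibrils and tenascin matrix. Of 22 collagens, 15 were up-regulated and 1 down-regulated (68.2% and 4.55%), with a median of 2.05 that became 0.99 with a pseudocount of 1. The basement membrane chains COL4A3 and COL4A4 rose from 0.0158 to 2.43 FPKM and from 0.214 to 7.74, and COL18A1 from 3.02 to 38.4. Of 10 laminins 4 were up-regulated (40%) and none down-regulated. LAMA3 (0.592 to 8.08 FPKM) and LAMB2 (19.6 to 109.8) were among the increases. The collagen receptor DDR2 rose from 0.250 to 13.3 FPKM. Periostin (POSTN) rose from 1.79 to 35.1 FPKM, and PDGFRB, a receptor of mesenchymal cells, from 0.0922 to 6.49. Of 10 fibroblast markers, 4 passed 0.5 FPKM in 8505C-PTX and all 4 were called, while COL1A2 and THY1 were listed at 0 in both libraries and LUM, DCN and FAP stayed below 0.5. The part of other cells in these values was not tested.

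Secreted defence proteins rose with the matrix. Of 24 genes of complement and coagulation, 14 were up-regulated and 2 down-regulated (58.3% and 8.33%, beside 15% and 5.89% of all genes). The median was 1.82 (1.40 with 0.5 FPKM required in both libraries). C1R, a protease of the first complement component, rose from 0.480 to 17.6 FPKM, C2 from 0.0493 to 2.89, and clusterin (CLU), an extracellular chaperone, from 11.8 to 157. C4A was listed at 0 in 8505C wt and in both libraries of SW1736, and at 6.05 FPKM in 8505C-PTX. Its near-identical copy C4B, at 0.0227 and 1.86 FPKM, could share its reads. The decreases were of tissue factor (F3, 140.9 to 20.1 FPKM), which starts coagulation, and of the mitochondrial protein C1QBP (331 to 113).

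Interferon-stimulated genes had 24 increases and no decrease among 55 genes (43.6%, compared with 15% of all genes), with a median of 1.13. IFITM1, which blocks viral entry at the membrane, was at 71.96 FPKM in wt and 761 in PTX, and IFITM3 at 444.5 and 2188.5; the genes of this family are alike and could share reads. IFI27 rose from 0.148 to 4.74 FPKM, XAF1, a binding partner of XIAP, from 0.0167 to 2.16, and the RNA sensor DHX58 from 0.536 to 5.97. The increase was uneven, since 31 of the 55 genes were not called and the median was 0.73 with 0.5 FPKM required in both libraries. Antigen presentation by HLA class I had 6 increases and 1 decrease among 22 genes (27.3% and 4.55%, beside 15% and 5.89% of all genes). HLA-F rose from 0.908 to 26.1 FPKM, HLA-B from 44.3 to 271 and HLA-C from 97.3 to 386, whereas the peptide transporter TAP2 fell from 30.6 to 7.65. HLA loci are polymorphic, so the fit of reads to the reference can differ between alleles. Of the 9 class II genes, 5 were up-regulated (55.6%, beside 15% of all genes), with HLA-DMA at 0.323 and 8.53 FPKM and HLA-DPA1 at 0.0679 and 3.61.

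The promoters of IFITM1 and IFITM3 are printed because both carry the letters GAAA, any 2 bases and GAAA again, the core of interferon-stimulated response elements, which 2.4% of all 10583 promoters held on either strand. Entries were found for 42 of the 55 genes (76.4%), so no share is given for the list. Among genes with an entry, the median change was 0.66 for those with a match and 1.13 for those without. A match thus did not go with a larger increase. The sequence of IFITM1 is chr11:313790-314039, plus strand, with the match beginning 40 bases before the start, and that of IFITM3 is chr11:320861-321110, minus strand, with matches beginning 52 and 35 bases before it. Capitals mark the matches. No promoter binding was measured.
IFITM1: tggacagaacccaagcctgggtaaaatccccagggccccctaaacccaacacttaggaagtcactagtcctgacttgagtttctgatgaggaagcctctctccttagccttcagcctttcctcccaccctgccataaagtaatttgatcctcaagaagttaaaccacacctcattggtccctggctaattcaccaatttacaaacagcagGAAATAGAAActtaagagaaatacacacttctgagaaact
IFITM3: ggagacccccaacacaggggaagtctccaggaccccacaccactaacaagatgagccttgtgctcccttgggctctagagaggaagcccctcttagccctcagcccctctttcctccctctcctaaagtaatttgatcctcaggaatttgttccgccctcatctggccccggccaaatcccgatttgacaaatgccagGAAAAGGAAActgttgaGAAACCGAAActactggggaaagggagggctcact

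Receptors and ligands of the tumour necrosis factor family had 11 increases and 2 decreases among 24 genes (45.8% and 8.33%, beside 15% and 5.89% of all genes). CD40, a costimulatory receptor, was listed at 0 in wt and at 6.10 FPKM in PTX. TNFSF10, the death ligand TRAIL, rose from 0.218 to 11.4 FPKM, and CD70 from 0.134 to 2.81. TNFRSF12A, the receptor of TWEAK, fell from 190.6 to 52.7. The median of the list was 1.22, but 0.31 with 0.5 FPKM required in both libraries, so that the list moved mainly through members near absent in wt. The NF-kappaB subunits and their feedback genes had a median of 0.01, with 3 of 25 up-regulated (12%, near the 15% of all genes), among them NFKBIZ (1.54 to 7.83 FPKM). Of 10 chemokines and chemokine receptors, 4 were up-regulated and 2 down-regulated (40% and 20%), with a median of 1.05. CXCL1 and CXCL8, attractants of neutrophils, fell from 32.7 to 7.82 FPKM and from 34.7 to 8.86, while CXCL16 rose from 1.61 to 14.48 and CCL2, an attractant of monocytes, from 4.53 to 15.18.

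Stress responses were not raised as a whole. Genes of the integrated stress response had 10 increases and no decrease among 33 (30.3%, beside 15% of all genes), with a median of 0.85. NUPR1, a nuclear stress protein, was at 0.1004 FPKM in 8505C wt, 117 in 8505C-PTX, 2.94 in SW1736 wt and 7.99 in the library labelled SW1736-PTX. The cytokine GDF15 rose from 0.0766 to 13.9 FPKM, ADM2 from 0.233 to 3.27, and the glycine transporter SLC6A9 from 0.863 to 7.49. The unfolded protein response of the endoplasmic reticulum had 1 increase among 27 genes, that of HERPUD1 (16.5 to 80.5 FPKM), and a median of -0.16. The aminoacyl-tRNA synthetases of the cytosol had 2 decreases among 20 (10%, beside 5.89% of all genes) and no increase. Antioxidant and glutathione genes had 9 increases and 2 decreases among 42 genes (21.4% and 4.76%, beside 15% and 5.89% of all genes). The increases were led by the aldo-keto reductases AKR1C1 (1.52 to 66.0 FPKM) and AKR1C3 (1.45 to 50.7), which are alike in sequence, while thioredoxin (TXN) fell from 301 to 97.4. Targets of p53 went both ways, with 8 increases (22.2%) and 3 decreases (8.33%) among 36 and a median of -0.09. BBC3 (PUMA) rose from 0.673 to 8.57 FPKM and BMF, another BH3-only protein, from 0.115 to 13.9.

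Of the 24 ABC transporters compared other than ABCB1, 6 were up-regulated and 1 down-regulated, and the median was -0.20. Among all compared genes, 15% were up-regulated and 5.89% down-regulated. The lipid transporters ABCB4 (listed at 0 and at 4.38 FPKM), ABCA8 (0.106 to 4.88) and ABCG1 (0.198 to 4.96) rose, and the organic anion pump ABCC4 fell from 10.5 to 3.44. Enzymes of drug and steroid oxidation were higher at low levels: 9 of 16 cytochromes P450 were up-regulated (56.2%) and none down-regulated. CYP2S1 was at 2.09 and 19.7 FPKM and CYP1A1 at 0.169 and 3.46.

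Lipid and lysosomal genes rose moderately. Of 28 genes of fatty acid and triglyceride synthesis, 9 were up-regulated and 1 down-regulated, with a median of 0.87. The shares were 32.1% and 3.57%, beside 15% and 5.89% of all genes. SCD, the desaturase that makes oleate, rose from 91.5 to 819 FPKM, the regulator SREBF1 from 11.7 to 65.8, and the desaturase FADS2 from 5.00 to 28.1. Of 25 genes of cholesterol synthesis and uptake, 3 were up-regulated and none down-regulated (12%, near the 15% of all genes), with a median of 0.61. Of 50 lysosomal genes, 15 were up-regulated and 1 down-regulated (30% and 2%), with a median of 0.80. The glucosidase GAA rose from 4.45 to 96.8 FPKM, the cholesterol carrier NPC2 from 8.34 to 152, and the glucuronidase GUSB from 16.5 to 255.0, while the cathepsin CTSF fell from 3.53 to 0.866.

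Changes in growth factor signalling differed by family. The TGF-beta, activin and BMP list had 17 increases and no decrease among 51 genes (33.3%, beside 15% of all genes). BMP6 was at 0.0293 and 6.36 FPKM, TGFB2 at 1.78 and 20.3 and the latency protein LTBP3 at 8.92 and 83.7. In the Notch pathway, 6 of 24 were up-regulated (25%, beside 15% of all genes) and none down-regulated. Among the 6 were the receptor NOTCH3 and the targets HES1 (1.70 to 23.6 FPKM) and HEY2 (0.0229 to 3.27). ERBB receptors and ligands went both ways, with 3 increases and 4 decreases among 12 genes and a median of 0.02. Those shares were 25% and 33.3%, beside 15% and 5.89% of all genes. Of the ligands, AREG fell as given above, EPGN from 2.10 to 0.330 FPKM and HBEGF from 21.0 to 6.85, while NRG2 rose from 0.1835 to 3.02, as did the receptor ERBB3 (0.367 to 3.69). Of 44 genes of MAPK response and feedback, 3 were up-regulated and 2 down-regulated, with a median of -0.10. These shares (6.82% and 4.55%) were below those of all genes (15% and 5.89%). The called members included FOSL1, a MAPK-responsive component of AP-1, which fell from 229 to 30.5 FPKM. The feedback inhibitor SPRED2 fell from 26.2 to 7.64, while SPRY1 rose from 2.25 to 18.7. Of 27 hypoxia genes 9 were up-regulated (33.3%, beside 15% of all genes), with NDRG1 at 43.98 and 348.5 FPKM and BHLHE40 at 8.52 and 71.5.

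Along the chromosomes, 13 runs of at least 6 neighbouring compared genes changed by more than 1 in 1 direction (22.5% of all genes were above 1), 9 of them up and 4 down, among 13212 genes on a single row of an autosome or chromosome X. The longest was on chromosome 7 and was 33 genes long. It went from ZNF727 to TYW1B (64045443 to 72828234, hg38, 8.78 Mb), and 32 of its 33 genes were called up, the exception being GS1-124K5.11 with a change of 1.50 below the limit. Its median change was 3.35, while the median of its 28 genes compared in the SW1736 pair was 0.05, with 3 of them up-regulated there. Set against 8505C wt, which both comparisons then share, the library labelled SW1736-PTX had a median of 1.22 over the run, with 12 genes above 1.5. The 10 compared genes before the run had a median of -0.14 with none up-regulated, and the 10 after it a median of 0.33 with 2. By the definition of a run, its members were above 1 and the gene next to each end was not. TYW1B lay 5.23 Mb behind the other genes, across an interval whose 7 names on single rows were not compared because of low FPKM. No DNA data were analysed here.

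The genes of this run span unrelated functions, and those named here were chosen after their values were seen. GUSB was at 16.5 FPKM in 8505C wt and 255.0 in 8505C-PTX, compared with 26.7 and 29.4 in SW1736 wt and the library labelled SW1736-PTX. SBDS, a ribosome maturation factor, rose from 72.9 to 260.5 FPKM (96.8 and 98.9 in the SW1736 pair). VKORC1L1, an enzyme of vitamin K recycling, rose from 18.1 to 104.5 (22.98 and 27.2), and TMEM248 from 19.3 to 115.8 (36.5 and 55.8). The RAB5 exchange factor RABGEF1 was at 12.3 and 67.4 FPKM, KCTD7 at 1.83 and 19.03, the urea cycle enzyme ASL at 6.34 and 24.5, CRCP, a subunit of RNA polymerase III, at 14.7 and 50.2, and TYW1, which modifies tRNA, at 6.97 and 29.8. In 32 of the 33 genes 8505C-PTX was the highest of the 4 libraries, and in 29 of the 33 8505C wt was the lowest, ties at 0 included. The 17 genes above 1 FPKM in 8505C wt rose by a median ratio of 5.79, from 2.84 to 17.6. The run was picked for changes above 1, so 8505C-PTX lay above 8505C wt in each of its genes. These counts and ratios are therefore partly fixed by that choice.

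Many genes of the run belong to families whose copies could share reads. It held 9 genes named ZNF, all of them up-regulated, but members of the run were chosen for a change above 1. Of the 436 other genes with such names that were compared, 32 were up-regulated (7.34%). Because of that choice, these shares cannot be set against each other. ERV3-1, an endogenous retroviral envelope gene, was listed at 0 in 8505C wt, at 42.4 FPKM in 8505C-PTX and at 3.97 and 3.92 in the SW1736 pair. ZNF117, which overlaps it (64974452 to 64991036 and 64990355 to 65006746), was at 0.220 and 31.4 FPKM. ZNF680 was at 0.797 and 38.6 FPKM and ZNF138 at 2.26 and 39.6. CCT6P1, CCT6P3, INTS4P2, PMS2P4 and STAG3L4 are related to genes elsewhere. Without genes named ZNF, pseudogenes and noncoding entries, 11 neighbouring genes remained above 1, with a median of 2.08.

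**Figure D3:**
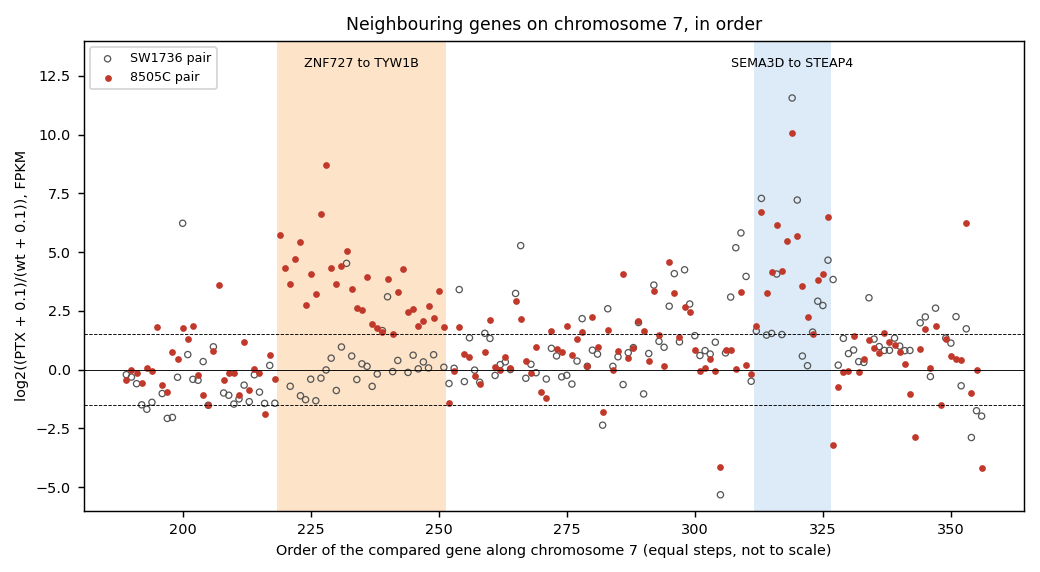
Compared genes are set in their order along chromosome 7, with the log2 change in the 8505C pair (filled red) and in the SW1736 pair (open grey). In the orange band, ZNF727 to TYW1B, all 33 red points are above 1 while the open points have a median of 0.05; in the blue band around ABCB1 both are raised.

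The next longest run, of 15 genes from SEMA3D to STEAP4 (84995556 to 88306913), held ABCB1. All 15 were up-regulated in the 8505C pair, with a median of 4.17, and 10 of the 14 compared were up-regulated in the SW1736 pair, with a median of 2.19. The 60 compared genes between the runs had a median of 0.74, with 18 up-regulated, and outside both runs 72 of 589 genes of chromosome 7 were up-regulated (12.2%). Genes of chromosome 13 were low as a whole: of 218 compared, 47 were down-regulated (21.6%) and 10 up-regulated (4.59%), with a median of -0.82, and the SW1736 pair had a median of -0.94 there. A run of 6 genes on chromosome 9 (4709556 to 5571282) fell by a median of 1.69 on the log2 scale and included the immune checkpoint ligands CD274 and PDCD1LG2, chosen here for their place in the run. The HOXC cluster on chromosome 12 gave a run of 9 genes with a median of 2.52, including HOXC13 (0.847 to 6.88 FPKM) and HOXC10 (1.56 to 10.7).

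Genes called in the 8505C pair only were defined as those that in the SW1736 pair changed by less than 1.5-fold, stayed at or below 0.5 FPKM in both libraries, or were called in the opposite direction. This held for 612 of the 2068 increases (29.6%) and 260 of the 812 decreases (32%). Of the 612 increases, 288 changed by less than 1.5-fold in the SW1736 pair, 237 were not above 0.5 FPKM there and 87 were called down. The 260 decreases were divided into 113, 90 and 57 in the same order. Genes not above 0.5 FPKM in the SW1736 pair were counted whatever their change there, and some passed 1.5 on the log2 scale. Among the increases, ABCB4 had a change of 2.42 and HEY2 of 2.22 in the SW1736 pair, and among the decreases UCHL1 had one of 1.92. Of the 13304 genes compared in both pairs, 13.8% were up-regulated and 5.43% down-regulated in the 8505C pair. Whether the change of a gene differed between the lines could not be tested with 1 library per condition. The definition uses the library labelled SW1736-PTX, and without that library it cannot be applied. A count that leaves the library out is that of the genes in which 8505C-PTX was beyond 1.5 from both wt libraries, 1323 of the increases and 482 of the decreases. That count takes in genes called in both pairs, such as ABCB1, and is not one of genes called in the 8505C pair only. With the library taken as a further level to compare, 8505C-PTX was beyond 1.5 from each of the other 3 libraries in 256 and 67.

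**Figure D4:**
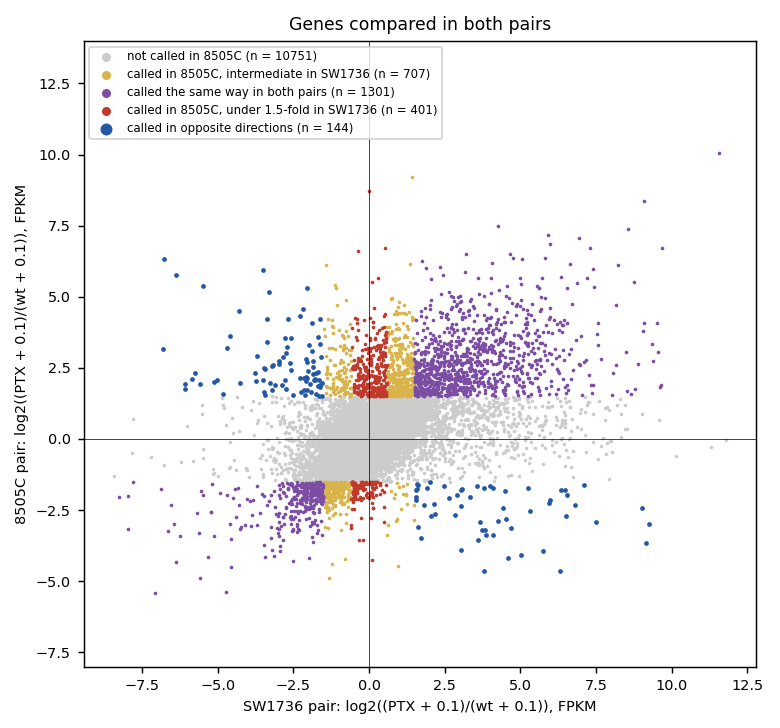
Each point is a gene compared in both pairs, with the log2 change of the SW1736 pair on the horizontal and of the 8505C pair on the vertical axis. Of the genes called in the 8505C pair, 1301 were called the same way in both (purple), 401 changed by less than 1.5-fold in the SW1736 pair (red) and 144 were called in opposite directions (blue).

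The increases with little change in the SW1736 pair were divided by which 8505C library stood apart. Of the 288, 139 had 8505C wt beyond 1.5 below each other library without 8505C-PTX standing apart, 25 had 8505C-PTX above each other library without 8505C wt standing apart, 9 had both and 115 neither. MEIS3, a homeobox cofactor, was at 0.513 FPKM in 8505C wt and 27.7 in 8505C-PTX, compared with 13.2 and 14.2 in the SW1736 pair. NCAM1, a neural adhesion molecule, was at 0.370 and 7.98 FPKM (9.48 and 10.3). In both genes 8505C wt was the only library far below the others. EHD3, an endosomal ATPase, was at 0.426 and 12.7 (3.13 and 3.56), above each of the others in 8505C-PTX. Among the 113 decreases, 8505C-PTX alone was below the others in 30, 8505C wt alone above them in 8, and neither stood apart in 75. MGLL was at 1.78 FPKM in 8505C-PTX and between 10.4 and 21.8 elsewhere, and AJAP1, an adherens junction protein, at 1.76 and between 13.9 and 20.7.

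Among genes at or below 0.5 FPKM in both SW1736 libraries, the increases included surface and matrix proteins. MAGEB1, a cancer-testis antigen, was listed at 0 in the other 3 libraries and at 5.12 FPKM in 8505C-PTX. CDO1, which oxidizes cysteine, was at 0.151 and 5.79 FPKM and at 0 in both SW1736 libraries, and DDR2 and COL4A4 stayed at or below 0.203 and 0.0489 there. On the falling side, UCHL1, NLGN4X, CDH5 and FBN2 were well expressed in 8505C wt, with at most 0.277 FPKM in either SW1736 library. FBN2, a fibrillin, kept 3.94 FPKM in 8505C-PTX and CDH5 4.54, while UCHL1 and NLGN4X were below 0.25.

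Genes called in opposite directions mostly began from unlike wt levels. Opposite calls require the wt or the PTX libraries to differ by more than 1.5, so the counts that follow are partly fixed by the definition. Of the 87 that rose in the 8505C pair and fell in the SW1736 pair, 81 differed by more than 1.5 between the wt libraries and 40 were within 1.5 of each other in the PTX libraries. Of the 57 with the reverse directions, these numbers were 52 and 18. DHRS3, a retinal reductase, was at 1.22 FPKM in 8505C wt and 52.4 in 8505C-PTX, and at 53.9 and 12.8 in the SW1736 pair. POSTN was at 1.79 and 35.1 FPKM in the 8505C pair and at 2.18 and 0.120 in the SW1736 pair, a gene with like wt levels. BEX1, a brain-expressed X-linked protein, was at 43.9 and 3.37 FPKM, and was listed at 0 and at 56.5 in the SW1736 pair. LCE2A, a cornified envelope protein, was at 48.2 and 6.01, against 0 and 60.8.

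**Figure D5:**
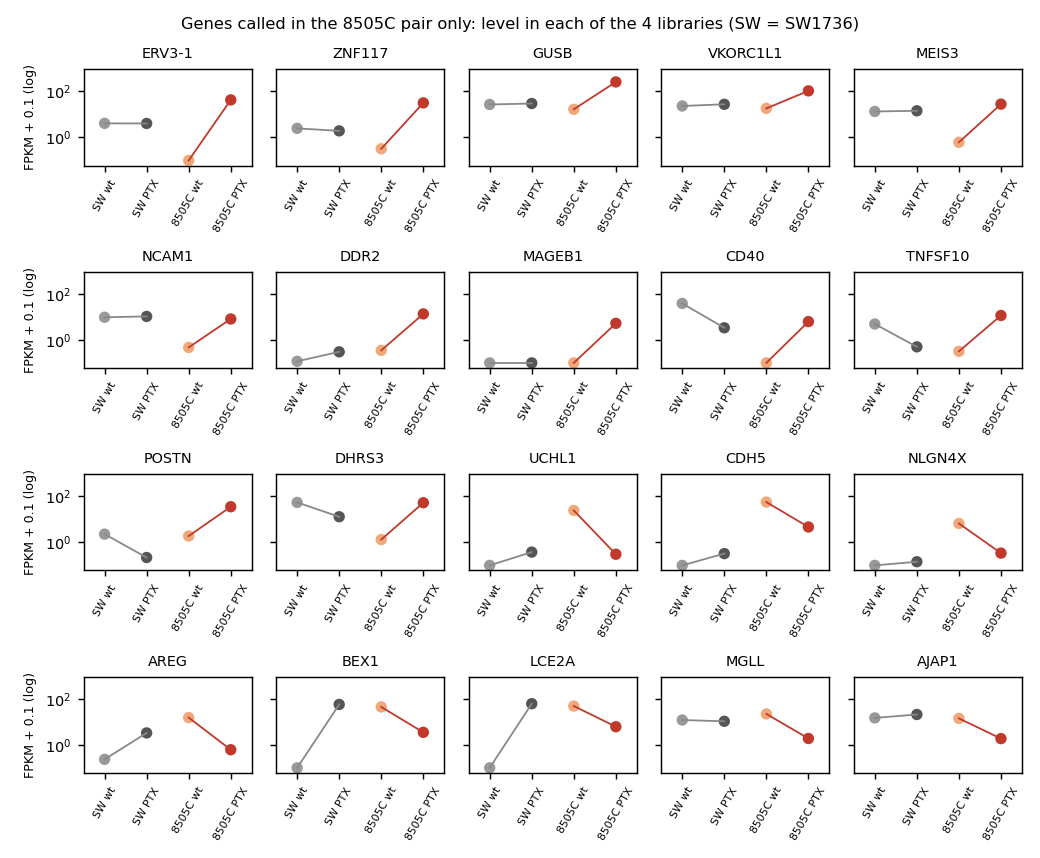
Each panel gives the FPKM + 0.1 of a gene on a log axis in the 4 libraries, with a line joining the wt and PTX library of a pair (SW1736 grey, 8505C red). MAGEB1 was above 0 only in 8505C-PTX, MEIS3 and NCAM1 were low only in 8505C wt, UCHL1 was high only in 8505C wt, and CD40, POSTN, AREG and BEX1 changed in opposite directions in the pairs.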

How the data were processed

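RNA of SW1736 and 8505C cells was sequenced by the study as single-end reads of 75 bp, 1 library per condition. The authors masked adapters, removed bases of low quality, aligned the reads to hg38 with STAR and estimated gene levels with StringTie. The annotation, the strand setting and the treatment of reads that fit several genes are not given in the sources used here. bcl2fastq 2.20 is named in the submitters' processing notes. The deposited values are FPKM, TPM and mean coverage per gene row. FPKM was used throughout, deposited TPM as an alternative, and deposited coverage to derive the depth. At that depth 3 reads on a gene of 1 kb correspond to 0.0689 FPKM in 8505C wt and 0.056 in 8505C-PTX, counting error only.

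FPKM values of rows with the same name were summed, names above 0.5 FPKM in at least 1 of the 2 8505C libraries were kept, and a change was log2((PTX + 0.1)/(wt + 0.1)), called beyond 1.5. Named genes were the 15 largest increases and decreases above 5 FPKM on 1 row, up to 4 called members above 2 FPKM in each direction of a list, the 10 largest in each direction called in the 8505C pair only, ABCB1, tubulins and cell type markers. Genes outside this rule were chosen after their values were seen. The 93 gene lists, the comparison and its limits were chosen with earlier results of these data known. Calling was tested on simulated data, and the search for runs on a made-up example. Scripts ran in Python 3.11.15 with pandas 2.3.3 and NumPy 2.4.6, and figures were drawn with matplotlib 3.10.9.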

Additional observations from a re-analysis of the deposited data

Results flagged for a closer look

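Of the named genes, 30 were called in opposite directions in the 8505C pair and the SW1736 pair, and for none of them was the difference between the pairs tested, since each condition had 1 library. The changes below are log2 values in the 8505C pair, and each gene moved the other way in the SW1736 pair, which includes the library labelled SW1736-PTX. Among surface receptors and ligands, the values were 5.96 for CD40, 5.17 for TNFSF10, 3.63 for CD70, 4.07 for the adenosine receptor ADORA1, 2.40 for the thrombin receptor F2R, 2.33 for the Wnt receptor FZD7, -4.63 for AREG, -2.36 for EPGN, -2.34 for the VEGF receptor FLT1, -3.93 for the proton-sensing receptor GPR65, -3.90 for the interleukin 33 receptor IL1RL1 and -2.15 for the channel TRPC4. Matrix genes all rose in the 8505C pair: POSTN by 4.22, LAMA4 by 1.75 and fibronectin (FN1) by 1.56.

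Among enzymes, regulators and secreted proteins, the values were 5.32 for DHRS3, 2.47 for the retinal dehydrogenase ALDH1A3, 4.33 for the transcription factor GATA3, 4.23 for the Rac exchange factor PREX1, 3.17 for the imprinted gene MEST, 3.32 for the granin SCG2, 4.23 for ZNF626 and 6.33 for MIR3615. Decreases in the 8505C pair were -3.66 for BEX1, -2.98 for LCE2A, -3.55 for SPRR2D, a cornified envelope protein, -1.61 for the cancer-testis antigen MAGEA1, -2.92 for OSBP2, -2.80 for LINC00707 and -4.19 for ZNF702P. FN1 is an example with high levels in all libraries, at 91.75 and 270.4 FPKM in the 8505C pair and 1133 and 103.5 in the SW1736 pair.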

How the results depend on the processing

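Of 388 named genes, none reversed under those of 9 other settings that gave it a value, and 121 had none when 0.5 FPKM was required in both libraries. Of the 388, 49 were no longer called with a pseudocount of 1, 83 with a limit of 2 on the log2 scale, 3 with TPM and 1 after centring on the median. Counts depended on low values. With a pseudocount of 1 there were 969 increases and 473 decreases, 230 and 100 of them in the 8505C pair only, 3 in place of 18 lists with a median above 1, and a median of 2.47 in the chromosome 7 run. With 0.5 FPKM required in both libraries there were 1018 increases, 153 decreases in the 8505C pair only, 4 such lists and a run median of 2.70, and the median of cancer-testis antigen families went from 1.05 to -0.058. With 2 FPKM in at least 1 library there were 1354 increases and 9 such lists, and with any FPKM above 0 there were 8. With a limit of 2 there were 375 decreases, 135 in the 8505C pair only. The following were chosen after seeing the data. Calls set apart from each other library numbered 256 and 67, and those from both wt libraries 1323 and 482. Without genes named ZNF, pseudogenes and noncoding entries the run held 11 genes with a median of 2.08, and with a limit of 1.5 per gene its median was 3.90. The cause of these shifts was not tested. No paired analysis was possible because the 8505C comparison has 1 library on each side and no result came from a test. A fit over both lines, blocked by line, would rest on the library labelled SW1736-PTX and was not run.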

Other observations

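Membrane and neural gene groups outside the comparisons above also held called genes. Of 23 potassium channels, 13 were up-regulated (56.5%) and 1, KCNMA1, fell from 14.7 to 1.69 FPKM. The median was 1.92 but 0.24 with 0.5 FPKM required in both libraries. Of 31 cadherins and protocadherins, 14 were up-regulated and 1 down-regulated (45.2% and 3.23%), with a median of 1.23 and of 0.49 under the same requirement. Of 47 semaphorins, plexins, ephrins and netrins, 19 were up-regulated and 2 down-regulated (40.4% and 4.26%). Cancer-testis antigens had 9 increases and 3 decreases among 20 genes (45% and 15%). Among all compared genes, 15% were up-regulated and 5.89% down-regulated.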
